A study of Homo sapiens with 6 samples.

Results

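Histone genes were taken from the deposited expression table by symbol, as every gene whose symbol begins with H1-, H2AC, H2BC, H2BU, H3C, H3-, H4C, H4-, H2AX, H2AZ, H2AJ, H2AW or MACROH2A, which gave 64 of 16760 genes. Of these, 49 were counted as replication-dependent cluster genes, 39 of them on chromosome 6, 9 on chromosome 1 and H4-16 alone on chromosome 12 (3 of the H1 family, 13 of H2A, 13 of H2B, 8 of H3 and 12 of H4), and 11 were variant genes. H2AW, H2BU1 and H3-4, which lie near each other on chromosome 1 outside the large clusters, were described as a class of 3, and H3-2 was kept apart. The RNA came from H1975, an established human lung adenocarcinoma cell line, with 3 libraries from YTHDC2 knockout cells and 3 from WT cells, and no treatment or time point is named for either group. YTHDC2 is an RNA helicase that reads N6-methyladenosine in RNA, and the comparison asked which transcripts differ once it is lost. A legend of the study speaks of biological replicates without saying whether that covers the sequenced libraries. Whether the knockout cells are 1 clone is not given in the sources used here. Where the libraries did not come from separate cultures, p-values measure only the spread between these libraries, which may be technical.

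Replication-dependent histone genes supply the core and linker histones that package newly made DNA, and they are switched on in S phase. Their mRNAs normally end in a conserved stem-loop that is bound by the stem-loop binding protein SLBP, in place of a poly(A) tail. Variant histones such as H3.3 and H2A.Z come from single genes with polyadenylated mRNAs and are made throughout the cell cycle, and macroH2A and H2A.X mark silent chromatin and sites of DNA damage, respectively. Whether RNA with a poly(A) tail was selected before sequencing is not given in the sources used here, and 31 further RNAs without a poly(A) tail were not analysed here.

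The deposited values are FPKM, fragments scaled to gene length and to the size of the library, so levels can be compared between genes. They were scaled to 32499448 to 34210901 fragments in the knockout libraries and 27505821 to 30675267 in the WT libraries, and 1 fragment in a gene of 500 bases was worth 0.0585 to 0.0727 FPKM. YTHDC2 itself was at 7.82, 8.92 and 8.14 FPKM in knockout and at 13.0, 17.1 and 201 FPKM in WT, so that WT replicate 3 stood apart from the other libraries (p = 0.1 by a two-sided exact permutation test, which 3 libraries against 3 cannot go below). No source used here says how this library came to differ, and each WT mean includes it. The labelled lung epithelial line expressed the keratins KRT8 and KRT18 at means of 90.1 and 67.0 FPKM, while 5 of its 10 epithelial markers averaged below 1 FPKM (EPCAM, KRT7, KRT19, MUC1 and SFTPC, with EPCAM at 0.532 FPKM), the fibroblast marker COL1A1 averaged 6.12 FPKM, and the leukocyte marker PTPRC averaged 7.69e-04 FPKM. Fold changes of all genes tested also moved with GC content. When genes were put into 10 bins of equal size by GC content, the median log2 fold change went from -0.35 in the bin of lowest GC to 0.26 in that of highest GC.

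The histone stem-loop, read as 6 paired bases around a loop of 4, was found in the GENCODE transcript models of 24 of the 49 cluster genes, of 3 of the 3 genes H2AW, H2BU1 and H3-4, and of 1 of the 11 variant genes, H2AX. For the other 25 cluster genes this says only that no such letters are in the models. The versions are shown 5′ to 3′ as DNA, with the loop in capitals, because they show that H2AW and H2BU1 share the version found most often in cluster genes, and that the H4 genes have versions of their own.
H2AW, H2BU1 and 12 cluster genes, among them H2BC21 and H2AC6: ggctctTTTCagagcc
H3-4 and the cluster genes H2BC4, H2BC5 and H2BC7: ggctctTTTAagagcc
H3C6: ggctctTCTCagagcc
5 genes of the H4 family, among them H4C8 and H4-16: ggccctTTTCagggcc
H4C9, H4C14 and H4C15: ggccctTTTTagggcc
H2AX: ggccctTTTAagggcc
A poly(A) signal, AATAAA or ATTAAA within the last 40 bases of a model, was present in 11 of 11 variant genes, 18 of 49 cluster genes and 1 of the 3 genes near H2AW, which was H2AW. Both features were present in 16 cluster genes and in H2AX and H2AW. They were not required to lie in the same model, nor the signal to follow the loop. In H4C11 the only model ends 6 bases after the loop. For H2BC21 the model went on for 1729 bases beyond the stem-loop, for H2AW for 390 bases and for H2AX for 821 bases.

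Promoters were read from RefSeq (GRCh38.p14), as the 250 bases before and 50 after the start of a gene, for 57 of the 64 genes. CCAAT, in either strand, was found in 35 of 44 promoters of cluster genes against 35.7% of 27305 promoters of all genes, TATAAA in 32 of 44 against 12%, and the octamer ATTTGCAT in 19 of 44 against 1.8%. The octamer was in 10 of the 13 promoters of cluster H2B genes, and in 1 of 9 promoters of variant genes. Below are the bases before the start of H2BC21, which rose in knockout, of H2BC12, the most abundant cluster gene, and of H1-10, the variant gene with the largest difference. CCAAT, ATTTGCAT and TATAAA are in capitals.
H2BC21, chr1:149886683-149886782, minus strand: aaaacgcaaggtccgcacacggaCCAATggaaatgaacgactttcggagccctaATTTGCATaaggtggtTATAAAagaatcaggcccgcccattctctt
H2BC12, chr6:27146859-27146958, minus strand: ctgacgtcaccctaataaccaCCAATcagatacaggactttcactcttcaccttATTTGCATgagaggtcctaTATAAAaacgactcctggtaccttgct
H1-10, chr3:129316287-129316386, minus strand: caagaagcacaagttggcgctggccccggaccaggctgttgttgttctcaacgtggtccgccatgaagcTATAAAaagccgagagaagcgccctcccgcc
H2BC21 and H2BC12 have the 3 motifs in the same order, whereas these 100 bases of H1-10 hold TATAAA alone. H2AW and H2BU1 are transcribed away from each other, H2AW from the minus strand, and the 229 bases between their starts are shown with CCAAT or its complement (3 times) and ATTTGC or its complement (2 times) in capitals. The full octamer ATTTGCAT is in neither promoter, and the shorter ATTTGC was not counted over the promoters of all genes.
Between H2AW and H2BU1, chr1:228457874-228458102, plus strand: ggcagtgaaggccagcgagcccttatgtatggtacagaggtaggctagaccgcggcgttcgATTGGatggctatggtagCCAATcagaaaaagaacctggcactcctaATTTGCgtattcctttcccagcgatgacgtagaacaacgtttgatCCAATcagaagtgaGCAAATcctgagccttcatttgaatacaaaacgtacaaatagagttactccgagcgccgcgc
These matches are a description of the letters and not of binding.

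Variant genes made up nearly all of the histone FPKM in these libraries. In 4 of them, H1-10, H2AX, H2AZ2 and MACROH2A1, every knockout library was higher than any WT library (against 20.7% of all genes). Their means were 1.32 to 1.65 times as high for the first 3 and 1.05 times for MACROH2A1. H2AZ1, H3-3A and H3-5 had overlapping groups. The summed FPKM of the 11 variant genes was 95.1% to 95.6% of that of all 64 histone genes in the 6 libraries. Whether this share holds for the RNA of the cells cannot be told, because poly(A) selection is not given. The variant sum was 1698, 1706 and 1711 FPKM in knockout and 1541, 1526 and 1490 FPKM in WT, so the groups did not overlap. Most of this difference lay in H1-10. Its means were 457 and 276 FPKM, where the sums averaged 1705 and 1519 FPKM in knockout and WT.

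**Figure D1:**
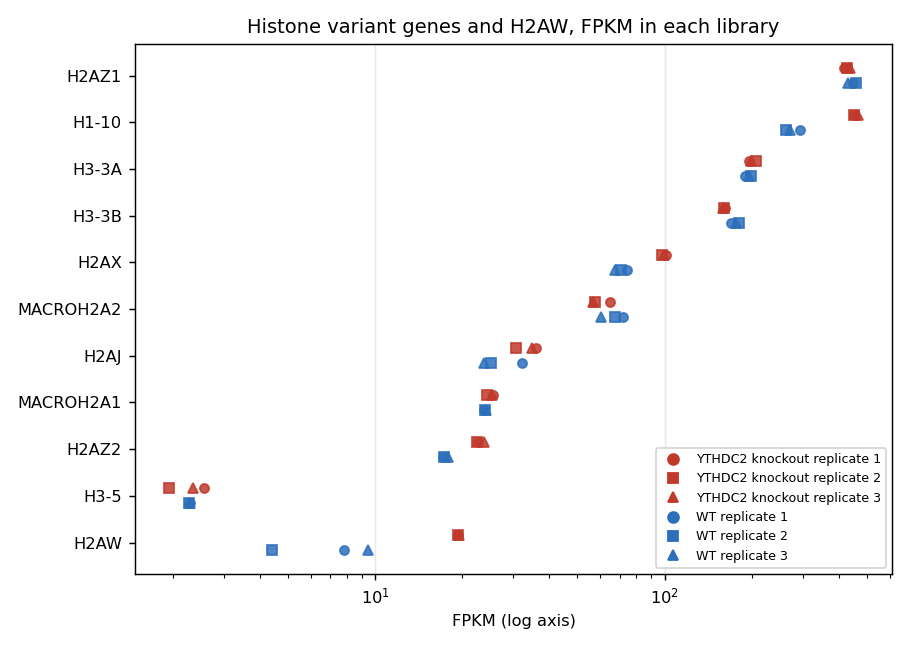
FPKM (horizontal log axis) of 10 variant genes and H2AW in each of the 6 libraries; red symbols are YTHDC2 knockout and blue symbols WT, and the shape gives the replicate. The red symbols of H1-10, H2AX, H2AZ2, MACROH2A1 and H2AW all lie to the right of the blue ones, and those of H2AZ1 and H3-3A mix with them.

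H1-10, also known as H1X, is a linker histone of interphase chromatin. It was at 453, 450 and 466 FPKM in knockout and at 294, 264 and 271 FPKM in WT. All knockout libraries lay far above all WT libraries, and the mean was 1.65 times as high. The log2 fold change was 0.73 (standard error, SE, 0.05, adjusted p = 2.82e-05 by limma), which passed the adjusted p but not the threshold of 1 on the log2 scale that a call also needed. With 68.6% GC, H1-10 lay in the bin of highest GC, and after a correction for GC content its log2 fold change was 0.33 (limma adjusted p = 4.39e-05). In GENCODE its exons share 345 of 1507 bases with an antisense gene, and no strand setting is stated, so fragments of the 2 genes cannot be told apart there.

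H2AX, the H2A that is phosphorylated at breaks in DNA, was at 101, 98.3 and 99.8 FPKM in knockout and at 73.9, 70.9 and 67.3 FPKM in WT. The groups did not overlap, and the log2 fold change was 0.50 (SE 0.05, adjusted p = 1.22e-04 by limma). With 66.4% GC, H2AX too lay in that bin, and after the correction the log2 fold change was 0.14 (limma adjusted p = 0.0276). H2AZ2, 1 of the 2 genes for H2A.Z, was at 22.7, 22.5 and 23.7 FPKM in knockout and at 17.2, 17.3 and 17.8 FPKM in WT, with a log2 fold change of 0.40 (SE 0.05, adjusted p = 5.00e-04 by limma). Its GC content was 43.1%, and the correction moved its log2 fold change away from 0, to 0.57. The other H2A.Z gene, H2AZ1, was the most abundant histone gene on average. Its values were 419, 428 and 438 FPKM in knockout and 449, 460 and 431 FPKM in WT, and they overlapped (log2 fold change -0.06, SE 0.04, adjusted p = 0.274 by limma). In 2 of the 18 settings it was lower at an adjusted p alone. These were quantile normalization (-0.12, limma adjusted p = 0.00945) and a common total (-0.12, limma adjusted p = 0.0165). With median scaling and with the GC correction the sign was positive (0.0701 and 0.0243). H2AZ1 took 69.2% to 70.5% of the FPKM of all 18 H2A genes without macroH2A in knockout and 76.1% to 78.0% in WT.

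H2AJ, an H2A linked to senescent cells, was at 36.0, 30.8 and 34.9 FPKM in knockout and at 32.3, 25.2 and 23.8 FPKM in WT. Knockout replicate 2 lay below WT replicate 1, and the limma adjusted p of 0.0373 was not kept after the GC correction (log2 fold change 0.33 before and 0.04 after, adjusted p = 0.705 after), nor without knockout replicate 1 or 3 or WT replicate 2 or 3. H3-3A and H3-3B encode the histone H3.3. H3-3A was at 196, 207 and 199 FPKM in knockout and at 189, 199 and 196 FPKM in WT, which overlapped, and H3-3B was at 162, 160 and 159 FPKM against 169, 181 and 176 FPKM, which did not overlap. H3-3A passed the adjusted p after the GC correction (log2 fold change 0.28, limma adjusted p = 3.11e-04) and with median scaling (0.17, limma adjusted p = 0.0353). The log2 fold change of H3-3B was -0.13 (SE 0.04, adjusted p = 0.0354 by limma), and it was 0.0444 after the GC correction and 0.00171 with median scaling. It did not pass with any library but WT replicate 1 left out. H3-5, a retrocopy of an H3.3 gene, was at 1.94 to 2.57 FPKM in knockout and 2.28 to 2.30 FPKM in WT.

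The macroH2A genes encode H2A with a large extra domain. MACROH2A1 was at 25.6, 24.4 and 25.3 FPKM in knockout and at 23.8, 24.0 and 24.1 FPKM in WT, which did not overlap, although the log2 fold change of 0.07 (SE 0.05) did not pass (limma adjusted p = 0.296). MACROH2A2 was at 64.8, 57.5 and 56.5 FPKM in knockout and at 71.7, 67.6 and 60.4 FPKM in WT, and overlapped. Its log2 fold change was -0.16 (limma adjusted p = 0.124), and it passed the adjusted p alone in 4 of the 18 settings. These were the GC correction (-0.23, limma adjusted p = 0.0157), a common total (-0.22, limma adjusted p = 0.0261) and a replicate block (-0.16, limma adjusted p = 0.0369). The last was without WT replicate 3, the lowest WT library (-0.23, limma adjusted p = 0.0366).

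By both thresholds, 0 of the 11 variant genes were called lower and 0 higher in the limma test, against 1.99% of all 15441 genes tested called lower and 0.732% called higher (307 and 113 genes, or 206 and 209 with median scaling, which raised the median of all genes by 0.13). At an unadjusted p under 0.05, 1 was lower and 4 were higher, against 4829 and 2993 of all 15441 genes tested. With limma voom on fragments 0 were called. At an adjusted p under 0.05 alone, 4 of the 11 (H1-10, H2AX, H2AZ2 and H2AJ) were higher, against a background of 16.6% of genes, and 1 (H3-3B) was lower, against 26.2%. The groups did not overlap in 4 variant genes that were higher (H1-10, H2AX, H2AZ2 and MACROH2A1), against 20.7% of genes, and in 1 that was lower, against 33.1%. The median log2 fold change of the 11 genes was 0.04, and that of all genes tested was -0.09.

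H2AW rose in knockout, the larger increase of the 2 histone genes called higher. It encodes an H2A and is named H2AC25 in newer tables. H2AW was at 19.3, 19.4 and 19.5 FPKM in knockout and at 7.78, 4.41 and 9.48 FPKM in WT. The 3 knockout libraries hardly differed and all lay far above the highest WT library, while the WT libraries differed among themselves. In fragments this was 337, 329 and 323 against 121, 69 and 133. The log2 fold change was 1.48 (SE 0.22, adjusted p = 9.66e-04 by limma), and it passed both thresholds in the 18 settings tried, at 1.17 to 1.71. Without WT replicate 2, which had the lowest value, it was 1.17.

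H2BU1, an H2B and the neighbour of H2AW across the 229 bases shown, had few fragments. It was at 0.897, 0.197 and 0.270 FPKM in knockout (14, 3 and 4 fragments) and at 0.144, 0.786 and 0.0797 FPKM in WT (2, 11 and 1 fragments). Knockout replicate 1 and WT replicate 2 were high and the groups overlapped (log2 fold change 0.50, SE 0.61, adjusted p = 0.552 by limma). Whether H2AW and H2BU1 differ in their change was not tested. H3-4, the testis H3 gene, had 2 fragments in knockout and 1 in WT, and H3-2 had 1 library above 0 in each group, so neither entered the test. Thus 2 of the 3 genes of this class were tested, and 1 was called higher.

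Cluster genes were low in FPKM, and the abundance was uneven. Whether their RNA was also low in the cells cannot be told, because poly(A) selection is not given. Of the 49, 42 averaged below 1 FPKM, and the median gene averaged 0.226 FPKM, against 2.29 FPKM for the lowest variant gene. H2BC12 and H1-2 together held 39.4 to 49.98 FPKM of the 61.5 to 72.6 FPKM that the 49 genes summed to. Over the 6 libraries together, 16 cluster genes had fewer than 10 fragments, 25 had 10 to 100, and 8 had over 100. A gene was tested if 3 or more libraries had a value above 0 FPKM, which held for 39 of the 49, and the other 10 were at most at 0.435 FPKM in any library, which H3C11 reached in WT replicate 3 with 6 fragments.

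**Figure D2:**
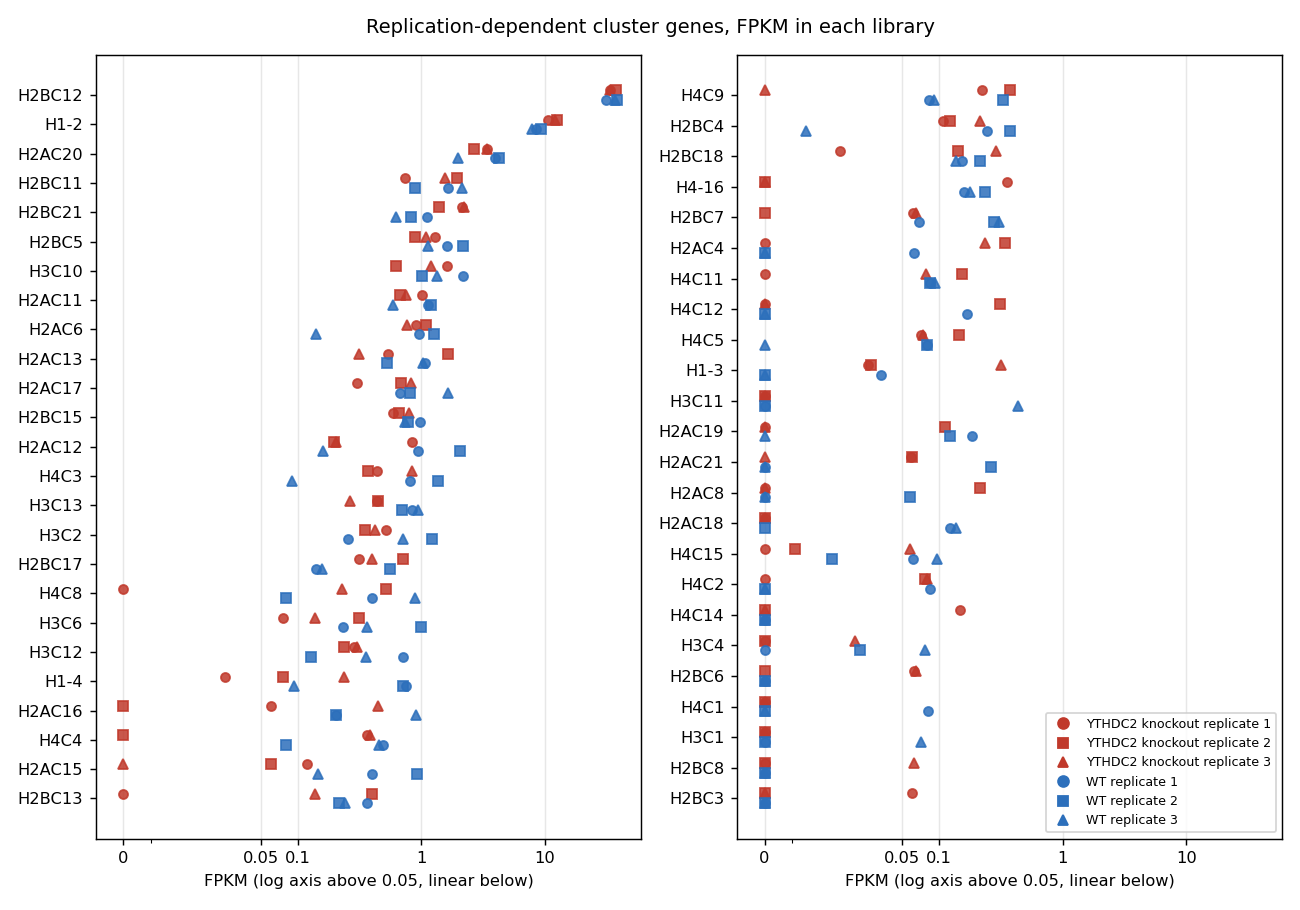
FPKM of the 49 replication-dependent cluster genes in each library, in order of their mean, on an axis that is logarithmic above 0.05 FPKM and linear below; red symbols are YTHDC2 knockout and blue symbols WT, and the shape gives the replicate. H2BC12 and H1-2 stand above the rest, and below 1 FPKM most genes spread widely within each group.

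H2BC12, an H2B on chromosome 6 (27146418 to 27146798 in the GENCODE model), was at 33.8, 37.4 and 33.6 FPKM in knockout and at 31.0, 38.4 and 37.1 FPKM in WT. The groups overlapped (log2 fold change -0.02, SE 0.08, adjusted p = 0.889 by limma). H1-2, a replication-dependent linker histone, was at 10.5, 12.6 and 12.1 FPKM in knockout and at 8.39, 9.28 and 7.81 FPKM in WT. All knockout libraries were above all WT libraries, and the log2 fold change of 0.46 (SE 0.09, adjusted p = 0.00398 by limma) passed the adjusted p alone.

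H2BC21 rose in knockout. It is an H2B gene of the smaller cluster on chromosome 1 with the long polyadenylated model described above, and its FPKM was scaled to a length of 2224 bases, which takes in the part beyond the stem-loop. H2BC21 was at 2.12, 1.39 and 2.23 FPKM in knockout (161, 103 and 161 fragments) and at 1.11, 0.821 and 0.621 FPKM in WT (75, 56 and 38 fragments). No knockout library overlapped a WT library. The log2 fold change was 1.09 (SE 0.23, adjusted p = 0.00493 by limma), and the fragments gave a ratio of 2.23 (exact Clopper-Pearson interval at 95% confidence 1.86 to 2.68, for counting error only). The log2 fold change was 0.97 without knockout replicate 3 and 0.90 without WT replicate 3, below the threshold of 1, with limma adjusted p-values under 0.05 in the 18 settings.

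H2AC15 and H2BC7 fell, on few fragments. H2AC15, an H2A on chromosome 6, was at 0.118, 0.0605 and 0 FPKM in knockout and at 0.397, 0.920 and 0.147 FPKM in WT, that is 2, 1 and 0 fragments against 6, 14 and 2. The ratio of fragments was 0.121 (counting interval 0.0232 to 0.402), and the log2 fold change was -1.72 (SE 0.48, adjusted p = 0.0181 by limma). In GENCODE, its model of 393 bases lies whole within exons of H2BC15 on the opposite strand. H2BC15 had overlapping values. GENCODE exons of H2BC15 cover 5477 bases, while its FPKM was scaled to 542, so whether the counted genes overlap is not known. Where they do, fragments of the 2 genes cannot be told apart without strand. H2BC7, an H2B, was at 0.0618, 0 and 0.0651 FPKM in knockout and at 0.0693, 0.276 and 0.307 FPKM in WT, that is 1, 0 and 1 fragments against 1, 4 and 4. Its ratio of fragments was 0.197 (counting interval 0.0207 to 0.952), and its log2 fold change was -1.09 (SE 0.36, adjusted p = 0.0342 by limma). With limma voom on the fragments neither was called. H2AC15 was not called without knockout replicate 3 (log2 fold change -1.42), and with 1 library left out H2BC7 was called when that library was WT replicate 1 but not in the other 5 cases.

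H3C13, an H3 gene of chromosome 1, was at 0.436, 0.448 and 0.262 FPKM in knockout and at 0.839, 0.695 and 0.930 FPKM in WT. The groups did not overlap, and its log2 fold change of -0.95 (SE 0.21, adjusted p = 0.00652 by limma) was just under the threshold (the gene was chosen after its values were seen). With limma voom on the fragments its adjusted p was 0.189. It passed both thresholds without knockout replicate 1, knockout replicate 2 or WT replicate 2. The fragments were 18 against 34, a ratio of 0.469 (counting interval 0.250 to 0.855). Among the other abundant cluster genes, the H2A genes H2AC20, H2AC11 and H2AC6, the H2B genes H2BC11 and H2BC5 and the H3 gene H3C10 had overlapping groups, with log2 fold changes from -0.51 for H2BC5 to 0.54 for H2AC6. H2AC6 showed how far 1 library could move such a gene, with 0.901, 1.10 and 0.771 FPKM in knockout and 0.948, 1.26 and 0.140 FPKM in WT, and without WT replicate 3 its log2 fold change was -0.23.

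Of the 39 cluster genes tested, 2 were called lower and 1 higher, against the background of 1.99% and 0.732% of all genes. At an adjusted p alone, 3 were lower (H2AC15, H2BC7 and H3C13) against 26.2% of genes, and 2 were higher (H2BC21 and H1-2) against 16.6%. The groups did not overlap in FPKM in 3 that were lower and 2 that were higher, against 33.1% and 20.7%. In fragments, H2AC15 and H2BC7 had ties between the groups. H2AC15 had 2 fragments in both knockout replicate 1 and WT replicate 3. H2BC7 had 1 fragment in each of knockout replicates 1 and 3 and WT replicate 1. The signs leaned one way, with 30 log2 fold changes below 0 and 9 above, while among all genes tested 9181 were below 0 and 6260 above. With median scaling these were 26 and 13 of the cluster genes and 7021 and 8420 of all genes. The median was -0.25 over the cluster genes, against -0.09 over all genes, and it was -0.44 after the GC correction, with a median GC content of 57.4% in cluster genes and 49.7% in all genes tested. For some cluster genes the GENCODE model read for GC differs from the length behind the FPKM. These are 1196 and 473 bases for H2BC7 and 2250 and 493 bases for H2AC11. The GC content and the correction of such genes are therefore uncertain. With the pseudocount of 0.1 used here a gene with few fragments gives a small fold change, and the 6 genes tested with under 10 fragments had a median of -0.17, the 25 with 10 to 100 a median of -0.39, and the 8 with over 100 a median of -0.10.

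**Figure D3:**
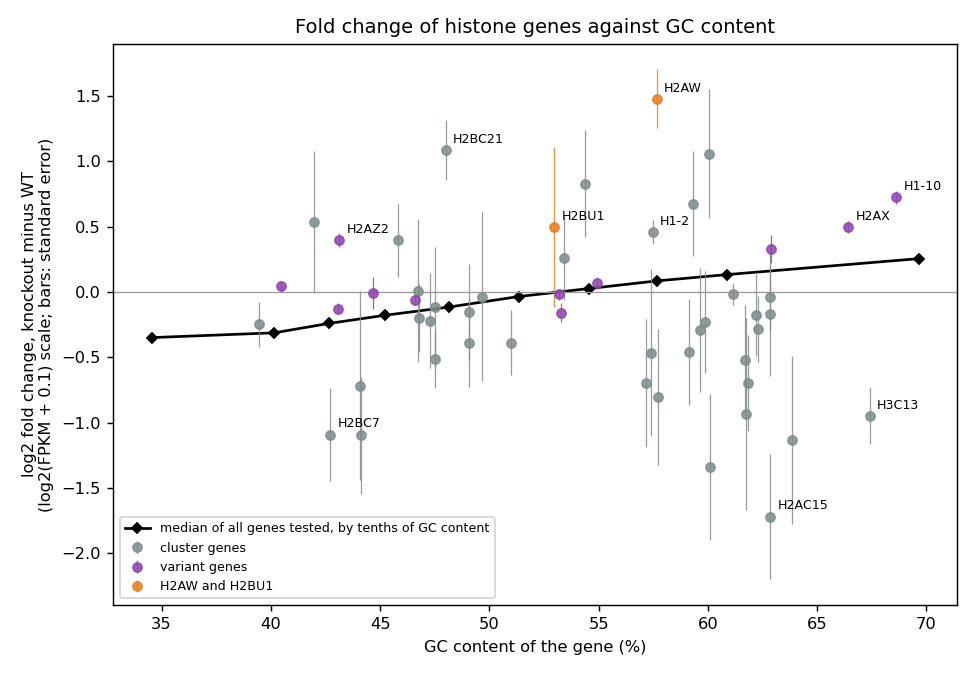
Log2 fold change of knockout minus WT (vertical axis, on the log2(FPKM + 0.1) scale, with standard errors) against GC content in percent for the 52 histone genes tested; the black line joins the medians of all genes tested in 10 bins of GC content, from -0.35 to 0.26. H1-10 and H2AX lie above the upper end of the line, H2AW and H2BC21 stand highest, and most cluster genes on the right side lie below it.

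By family, the sums of the cluster genes moved unevenly. The 8 H3 genes summed to 2.94, 1.96 and 2.36 FPKM in knockout and to 4.19, 4.07 and 4.29 FPKM in WT, and these did not overlap. All 6 of the H3 genes tested had a log2 fold change below 0, with each of the 3 other scalings too, from -1.10 for H3C6 to -0.23 for H3C12, although 0 were called (unadjusted p under 0.05 in 2, H3C13 and H3C6, and 0 with limma voom). Over the 17 settings that tested it, H3C12 ranged from -0.70 to 0.21, so its sign was not kept. H3C6 and H3C12, like H3C11 above, were named after their values were seen. The 3 H1 genes, nearly all H1-2, summed to 10.6, 12.7 and 12.6 FPKM in knockout and to 9.18, 9.98 and 7.90 FPKM in WT. The H2A sums of 6.90 to 7.74 FPKM in knockout and 6.73 to 11.6 FPKM in WT overlapped, as did the H2B sums of 39.2 to 43.7 and 37.3 to 44.7 FPKM and the H4 sums of 1.59 to 1.96 and 1.89 to 2.50 FPKM. The sums of all 49, at 64.5 ± 3.29 and 66.3 ± 5.53 FPKM (SD, n = 3), overlapped.

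**Figure D4:**
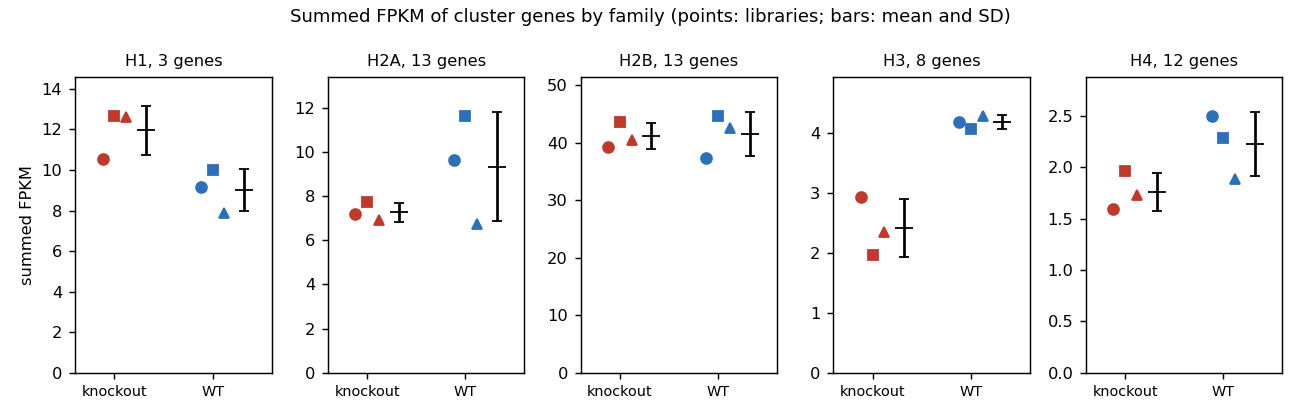
Summed FPKM (vertical axes, each from 0 on its own scale) of the cluster genes of each family; red symbols are YTHDC2 knockout and blue symbols WT, circles, squares and triangles are replicates 1, 2 and 3, and black bars give the mean and SD of 3 libraries. The H1 sums are higher in knockout and the H3 sums higher in WT without overlap, and those of H2A, H2B and H4 overlap.

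Libraries of both groups differed among themselves in these genes. Over the 33 cluster genes with 10 or more fragments, WT replicates 1, 2 and 3 were the lowest WT library in 8, 10 and 13. They were the highest in 10, 16 and 7. Knockout replicates 1, 2 and 3 were the lowest knockout library in 14, 12 and 6 and the highest in 8, 12 and 13. Whether these counts differ from an even split was not tested. Genes with a wide spread included H4C3, at 0.810, 1.37 and 0.0898 FPKM in WT, and H1-4, at 0.750, 0.704 and 0.0924 FPKM in WT and 0.0371, 0.0763 and 0.235 FPKM in knockout (both were chosen after their values were seen). Without WT replicate 3 the log2 fold change of H1-4 went from -1.34 (limma adjusted p = 0.0816) to -2.04 (limma adjusted p = 0.00375). For the 61 genes of DNA replication and S phase, the median deviation from the mean of each gene was 0.01, 0.07 and 0.09 on the log2 scale in WT replicates 1, 2 and 3, and -0.06, -0.05 and -0.10 in the knockout replicates.

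The length behind the FPKM also divided the cluster genes. For 38 of them it was under 600 bases, near that of a coding sequence with short ends, and for 8 it was over 800 bases, which takes in sequence beyond the usual end (H2BC12, H2BC18, H2BC21, H2BC4, H2BC5, H3C4, H3C6 and H4C15). The 8 long genes had a median of 129 fragments over the 6 libraries and the 38 short ones a median of 16.5. Per length, their median levels were 0.266 and 0.205 FPKM.

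Genes that make, process or use histone mRNA were compared as lists. Of 44 genes of histone mRNA 3′ processing and turnover, 0 were called lower and 0 higher in the limma test, and 0 were called with limma voom. At an unadjusted p under 0.05, 26 were lower and 9 higher, against 4829 and 2993 of all 15441 genes tested. At an adjusted p alone 25 were lower and 8 higher, against 26.2% and 16.6% of all genes, with a median log2 fold change of -0.22. With median scaling these were 17 and 10, with a median of -0.0924. SLBP, which binds the stem-loop, was at 80.04, 80.6 and 79.0 FPKM in knockout and at 88.8, 86.5 and 84.8 FPKM in WT, lower in every knockout library (log2 fold change -0.12, SE 0.04, adjusted p = 0.0465 by limma), but its log2 fold change was 0.0113 with median scaling. CASP8AP2 (FLASH), part of the complex that cuts histone pre-mRNA, was at 4.62, 5.32 and 5.10 FPKM against 6.32, 10.6 and 8.58 FPKM (log2 fold change -0.72, limma adjusted p = 0.00671), and its log2 fold change was -0.45 after the GC correction. EXOSC10, of the nuclear RNA exosome, was also lower at an adjusted p alone, with a log2 fold change of -0.56.

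Of 26 tested genes of histone gene transcription, 1 was called lower and 0 higher. At an adjusted p alone 13 were lower and 4 higher, against 26.2% and 16.6% of all genes, with a median of -0.30. With median scaling these were 11 and 7, with a median of -0.17. The gene called lower was CDKN1A, the inhibitor of cyclin-dependent kinases, at 28.3, 29.3 and 28.02 FPKM in knockout and 71.6, 63.2 and 57.9 FPKM in WT (log2 fold change -1.16, limma adjusted p = 2.32e-05). NPAT, the coactivator of replication-dependent histone genes at histone locus bodies, was at 2.35, 2.65 and 2.56 FPKM in knockout and at 3.75, 4.96 and 4.89 FPKM in WT. All knockout values lay below all WT values (log2 fold change -0.81, SE 0.12, adjusted p = 0.00103 by limma), and after the GC correction it was -0.54. CCNE2, a cyclin E whose kinase acts on NPAT, was at 3.11, 3.77 and 3.204 FPKM in knockout and at 4.08, 5.83 and 4.62 FPKM in WT (log2 fold change -0.50, limma adjusted p = 0.0165), and after the GC correction its log2 fold change was -0.23 (limma adjusted p = 0.0740).

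Of 44 histone chaperones and exchange factors, 0 were called lower and 0 higher in the limma test (unadjusted p under 0.05 in 19 lower and 9 higher, 1 called lower and 0 higher with limma voom), and at an adjusted p alone 17 were lower and 7 higher, with a median of -0.08. ASF1A, a chaperone of H3 and H4, was at 9.14, 10.3 and 10.1 FPKM in knockout and at 17.4, 18.2 and 17.2 FPKM in WT (log2 fold change -0.84, limma adjusted p = 5.55e-05). RBBP7, which binds H4 in several chromatin complexes, was at 191, 193 and 186 FPKM against 123, 132 and 137 FPKM (log2 fold change 0.54, limma adjusted p = 9.51e-05). Of 61 genes of DNA replication and S phase, 0 were called lower and 0 higher in the limma test (unadjusted p under 0.05 in 32 lower and 14 higher, 0 called with limma voom), and at an adjusted p alone 31 were lower and 12 higher, with a median of -0.18. PCNA, the sliding clamp of DNA polymerases, was at 227, 225 and 220 FPKM in knockout and at 267, 260 and 264 FPKM in WT (log2 fold change -0.23, limma adjusted p = 0.00131). POLD1, the catalytic subunit of DNA polymerase delta, and CDT1, a factor that licenses origins, were higher at log2 fold changes of 0.97 and 0.80, or 0.64 and 0.47 after the GC correction. PCNA had a log2 fold change of -0.10 with median scaling (limma adjusted p = 0.212) and of -0.12 after the GC correction. With that scaling 8 chaperone genes were lower and 13 higher at an adjusted p alone, with a median of 0.0477, and 13 genes of DNA replication and S phase were lower and 19 higher, with a median of -0.0480, so neither list had 1 direction under every scaling. Without that scaling, these lists too stood against 26.2% of all genes lower and 16.6% higher at an adjusted p alone. At an unadjusted p under 0.05 they stood against 4829 lower and 2993 higher of all 15441 genes tested. With it, 2515 of all 15441 genes tested were lower and 3621 higher at an adjusted p alone.

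Across the 18 settings, H2AW, H1-10, H2AX, H2AZ2 and H1-2 stayed above 0 with a limma adjusted p under 0.05 in each, whereas H2AC15 passed both thresholds in 13 of the 17 settings that tested it and H2BC7 in 6 of 17. H2BC21 passed both in 15 of 18.

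**Figure D5:**
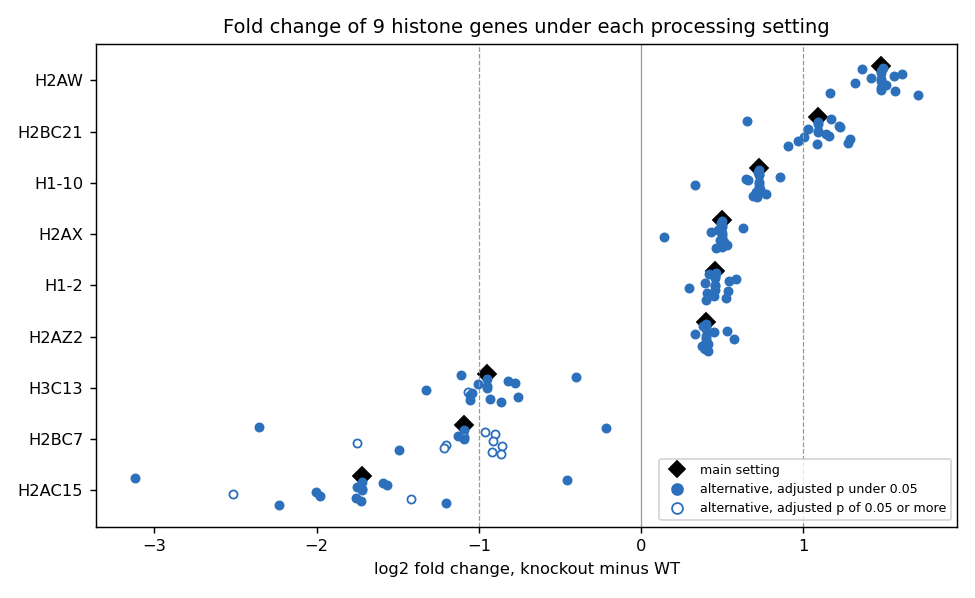
Log2 fold change of knockout minus WT (horizontal axis) of 9 histone genes under each processing setting, 1 point per setting; black diamonds are the values reported, filled circles alternatives with an adjusted p under 0.05, open circles those at 0.05 or more, and dashed lines mark -1 and 1. H2AW stays to the right of 1, H2BC21 crosses it in 3 settings, and H2AC15 and H2BC7 spread furthest.

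Several values are uncertain by the way genes share sequence. Histone genes of 1 family are near-identical in their coding parts, and how the authors counted fragments that fit several copies is not given in the sources used here. In GENCODE, exons of 18 of the 64 genes overlap those of another gene, 14 of them on the opposite strand. The annotation behind the FPKM is not given, so the overlaps of the counted genes may differ. In bulk RNA, fewer cells of a kind and less RNA per cell cannot be told apart, and the share of cells in S phase was not measured.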

How the data were processed

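RNA-seq of 3 YTHDC2 knockout and 3 WT libraries of H1975 cells was used. The authors deposited 1 table of FPKM values for 16760 genes, made with GRCh38.p13; no source used here names the aligner, the counting program, the annotation or the strand setting. Samples were grouped by the labelled genotype. The members and lists were chosen with earlier results of these data known. The 15441 genes with a value above 0 in 3 or more libraries were tested as log2(FPKM + 0.1) with limma 3.58.1 in R 4.3.3 (trend and robust moderation on), and p-values were adjusted by Benjamini-Hochberg over all of them. A call needed a log2 fold change beyond 1 in size together with an adjusted p under 0.05. On this scale the change of low genes is understated. Named genes were the members called, the variant genes and H2AW, H2BU1 and H3-4, the 8 most abundant cluster genes that were not called, the called members of each list (otherwise the 2 with the smallest adjusted p), and SLBP, NPAT, CASP8AP2, PCNA and CCNE2; others are marked, and the values of some genes within this rule are not reported here.

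Whole fragments were recovered for 16760 genes (tolerance 0.02) from the steps in the FPKM values, and intervals are exact Clopper-Pearson at 95% confidence for counting error only. Positions, models and GC content came from GENCODE (GRCh38), where 64 of 64 symbols were matched, and promoters from RefSeq (GRCh38.p14). GC content was that of the longest protein-coding model of a gene, or else of its longest model. The lung epithelial, fibroblast and immune marker lists had 9, 5 and 2 genes tested, with 2, 1 and 0 called lower and 0 higher. Alternatives were pseudocounts of 0.01 and 1, no filter, a filter at a mean of 1 FPKM, median scaling, quantile normalization, limma with trend and robust moderation off, a common total, a replicate block, GC correction (lowess), limma voom on fragments, an adjusted p alone, and leaving out each library. The fit and the recovery of fragments were tested on simulated data. Python 3.11.15, numpy 2.4.6, pandas 2.3.3, scipy 1.17.1 and matplotlib 3.10.9 were used.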

Additional observations from a re-analysis of the deposited data

How the results depend on the processing

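The counts of called cluster genes rest on few fragments, and the scaling sets the sign of genes whose log2 fold change is near 0. Over all genes tested, 307 were called lower and 113 higher, against 206 and 209 with median scaling, which raised the median of all genes by 0.13, 206 and 195 with quantile normalization, 69 and 29 with a pseudocount of 1, 505 and 184 with a pseudocount of 0.01, 126 and 80 with a filter at a mean of 1 FPKM, 300 and 57 with the GC correction, and 483 and 166 with limma voom. Of 386 values of 23 named histone genes under the alternatives, 318 kept their direction and side of the threshold, 33 lost it, 10 gained it, and 25 changed sign; the cause was not tested.

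Cluster genes called lower, 2 as reported, were 0 with a pseudocount of 1, a filter at a mean of 1 FPKM, limma without trend and robust moderation, and limma voom, and 1 with median scaling and quantile normalization. Leaving out 1 library gave 1 to 4. Cluster genes called higher, 1 as reported, were 0 with a pseudocount of 1 and 2 at an adjusted p alone, and 0 to 2 with 1 library left out (0 without knockout replicate 3 or WT replicate 3, and 2 without knockout replicate 1, with H2AC4, or WT replicate 2, with H2BC17). Variant genes called, 0 as reported, were 1 lower and 4 higher at an adjusted p alone. The median log2 fold change of cluster genes was -0.51 with a pseudocount of 0.01, -0.0401 with the filter at a mean of 1 FPKM and -0.44 with the GC correction, and that of variant genes was 0.17 with median scaling, 0.0929 with quantile normalization, -0.0210 with a common total, and 0.0230 to 0.0881 with 1 library left out.

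The changes of sign were all in genes that did not pass both thresholds. They were with median scaling H2AZ1 (0.0701), H3-3B (0.00171), H3-5 (0.12), H2BC12 (0.11), H2AC20 (0.0899), with quantile normalization H3-3A (-0.0274), H3-5 (0.0929), H2AC20 (0.0861), with a common total H3-3A (-0.021), with the GC correction H2AZ1 (0.0243), H3-3B (0.0444), H3-5 (0.12), MACROH2A1 (-0.0366). With 1 library left out, the log2 fold change ranged from -0.37 to 0.15 for H2AC20, from -0.23 to 1.02 for H2AC6, from -0.48 to 0.23 for H2BC11, from -0.11 to 0.0423 for H2BC12, from -0.0301 to 1.19 for H2BU1, and from -0.0959 to 0.0988 for H3-5.

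The labels number the replicates of both groups, and the deviations of libraries with the same number correlated at 0.21, 0.13 and -0.06 over 11121 genes, with 3 of 6 libraries correlating best with their own number, so the numbers were not taken as pairs. With the replicate number as a replicate block, 4 cluster genes were called lower (H2AC15, H2AC16, H2BC7 and H3C6), 1 higher, and 0 variant genes.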
